A study of Bos grunniens x Bos taurus and Bos grunniens with 6 samples.

Results

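The genes described here encode the actin-like proteins ACTL7A, ACTL7B, ACTL9, ACTRT2 and ACTRT3, the capping protein subunits CAPZA3 and CAPZB, and the calyx proteins CYLC1, CYLC2 and CCIN of the sperm head. They were selected by gene symbol, without regard to case, from the table of 18918 genes. All 10 symbols were found, on 11 genes, because ACTL7B stood on ENSBGRG00000002132 and, written Actl7b and without a description, on ENSBGRG00000022764. The latter is called the second ACTL7B gene below by its symbol alone, and whether it is ACTL7B or another actin-like gene was not settled. No sequences were compared, and as reads can be divided between genes of near-identical sequence, the levels of both are uncertain. Testis RNA was compared between 3 cattle-yak (C1, C2 and C3) and 3 Gannan yak (Y1, Y2 and Y3), 6 males that were all 4 years old, with 1 library per animal and no treatment. The cattle-yak were F1 hybrids of a Jersey sire and a Gannan yak dam, while the yak, as the fertile parental breed, were the control group. The methods describe surgical castration for the hybrids and euthanasia for the yak, and the herds were kept in different counties, so these conditions and the breed cannot be told apart. The values are FPKM, that is, fragment numbers scaled to the length of the gene model and the depth of the library, computed by the authors with the yak genome as reference for both groups.

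In round and elongating spermatids, the acrosome is fastened to the nucleus by a rigid cytoskeletal layer, the perinuclear theca, whose part behind the acrosome is the calyx. Actin-like and actin-related T proteins, which resemble actin but occur mostly in spermatids, form part of its subacrosomal region. Capping protein, a pair of an alpha and a beta subunit, closes the fast-growing end of actin filaments, and CAPZA3 is the alpha subunit of male germ cells. The cylicins CYLC1 and CYLC2 are basic, lysine-rich proteins and calicin (CCIN) is a BTB-kelch protein, and all are known as structural components of the calyx. In mouse, loss of several of these genes gives misshapen sperm heads or loose acrosomes.

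The FPKM values rested on 11.2 to 11.8 M (1e6) fragments on genes in cattle-yak and 13.0 to 13.1 M fragments in yak, recovered as whole fragments from the steps of the values. The labelled tissue was checked with marker lists. In yak the spermatid genes were abundant, and in cattle-yak all 7 genes of the elongating spermatid list and all 8 of the round spermatid list were called lower, with summed levels of 19.6 to 90.6 and 12.8 to 55.5 FPKM against 9654 to 11726 and 1171 to 1308 FPKM. Of the 9 spermatocyte genes 3 were called lower and 1 higher, and of the 9 spermatogonia genes 8 were called higher. The 13 Sertoli, 7 Leydig and 7 myoid cell genes were all called higher, and no marker gene was at 0 in all libraries of a group. Of the endothelial genes 3 were called higher and 1 lower of 7, and of the macrophage genes 3 higher and 2 lower of 6. Over all tested genes 33.4% were called higher and 20.8% lower. With each library scaled to the Sertoli genes, only 30 of all tested genes were called higher. The median log2 (foldchange) was then −0.3 for Leydig, −0.26 for myoid cell and −0.27 for spermatogonia genes. For round and elongating spermatid genes it was −7.26 and −9.88. In whole tissue, fewer cells of a type and less RNA per cell cannot be told apart.

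In yak testis all 11 genes had high levels. ACTL7B had the highest mean, 680.1 ± 21.7 FPKM (SD, n = 3), which ranked 86 among the 18918 genes. CCIN, CAPZA3 and ACTL7A followed with 405 ± 39.5, 367 ± 41.8 and 343 ± 9.76 FPKM, and their neighbours in this order overlapped between animals. CAPZB (269 ± 27.8), ACTL9 (251 ± 5.25), ACTRT2 (247 ± 10.6) and the second ACTL7B gene (245 ± 19.1) formed a group with overlapping ranges. CYLC2 lay below them with 169.9 ± 22.9 FPKM. CYLC1 and ACTRT3, with 55.6 ± 1.42 and 52.6 ± 7.02 FPKM, were the lowest and overlapped with each other, and 87.6% and 86.8% of all genes still had a lower mean in yak. The lengths of 10 of the 11 gene models were multiples of 3, against 53.1% of all genes with a recovered length. Whether these models hold coding sequence alone was not tested. The second ACTL7B gene, with 3615 bases against 1254 for ACTL7B, is among the 10. Model length bears on any level set against genes with longer models.

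**Figure D1:**
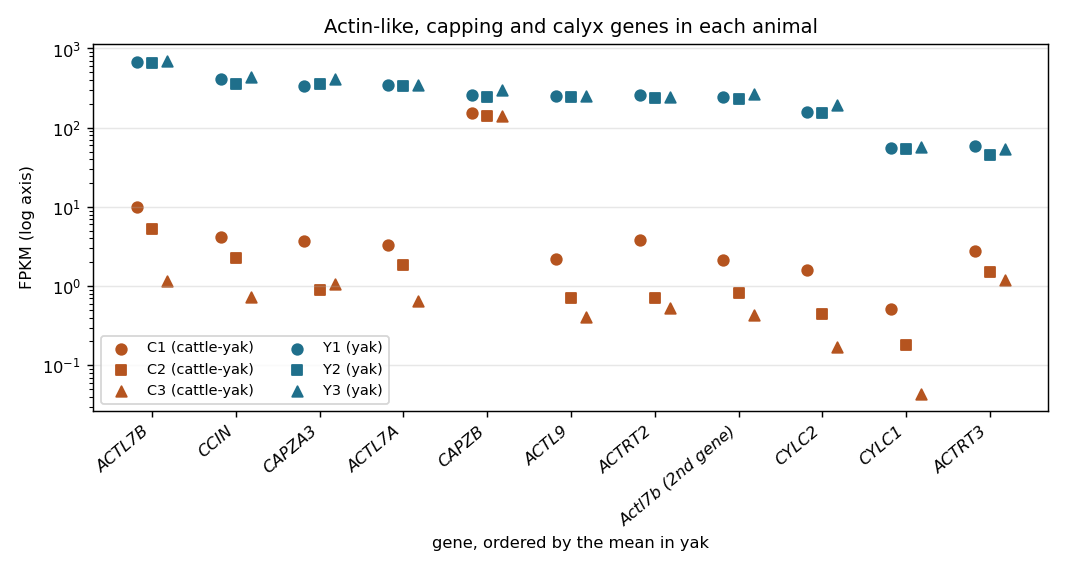
FPKM (log axis) of the 11 genes, ordered by their mean in yak, with a point for each cattle-yak animal (C1 to C3) and each yak animal (Y1 to Y3). Except for CAPZB, every gene lay at 45.1 FPKM or more in each yak and at 9.97 FPKM or less in each cattle-yak.

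In cattle-yak, 10 of the 11 genes were called lower and none higher, while CAPZB had a smaller difference under the fold threshold. A gene was called when limma gave a Benjamini-Hochberg adjusted p under 0.05 over the 15042 genes tested and a log2 (foldchange) of log2 (FPKM + 1) beyond 1 in either direction. By this rule 20.8% of all tested genes were lower and 33.4% higher in cattle-yak. In each of the 11 genes all 3 cattle-yak values lay below all 3 yak values, which was the case in 30.2% of the tested genes, while 84.1% of them did not overlap in either direction. The median log2 (foldchange) of the 10 genes without CAPZB was −6.96, against 0.51 over all tested genes. Summed per library, they reached 34.2, 14.7 and 6.40 FPKM in the hybrids (C1 to C3) and 2806, 2668 and 2974 FPKM in the yak (Y1 to Y3). This is 0.468% ± 0.020 of all FPKM for the yak libraries and 0.00312% ± 0.00241 for those of the hybrids (SD, n = 3). The sums of the groups did not overlap (exact permutation test on their log2, two-sided, p = 0.1, the smallest that 3 animals against 3 can give).

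Among the actin-like proteins, ACTL7A (ENSBGRG00000002145), which is known to hold the acrosome to the nucleus, had 3.34, 1.83 and 0.655 FPKM in C1, C2 and C3, and 347, 332 and 349.8 FPKM in Y1, Y2 and Y3. The mean in cattle-yak was 0.566% of that in yak, a log2 (foldchange) of −6.98 (SE 0.30, limma adjusted p = 3.9e-07). Behind these values stood 52, 27 and 10 fragments in the cattle-yak libraries and 5727 to 6010 in the yak libraries.

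ACTL7B (ENSBGRG00000002132), an intronless relative of ACTL7A, had 9.97, 5.28 and 1.17 FPKM in C1 to C3 and 680.5, 658 and 702 FPKM in Y1 to Y3. Its log2 (foldchange) was −7.00 (SE 0.49, limma adjusted p = 4.0e-06), with the widest standard error of the set. The second ACTL7B gene had 2.13, 0.817 and 0.429 FPKM in C1 to C3 and 244, 227 and 265 FPKM in Y1 to Y3, a log2 (foldchange) of −6.93 (limma adjusted p = 2.2e-07). Both genes were therefore low in the same animals. The ratio of the second gene to the first averaged 0.360 ± 0.017 over the yak and 0.245 ± 0.110 over the hybrids (SD, n = 3). The gene models differ in length, with 3615 bases for the second and 1254 for the first.

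ACTL9 (ENSBGRG00000025424), known as a partner of ACTL7A in the perinuclear theca, had 2.23, 0.715 and 0.413 FPKM in C1 to C3. In yak it had the narrow range of 245 to 254 FPKM. The log2 (foldchange) was −6.99 (SE 0.27, limma adjusted p = 2.7e-07), or −7.98 with a pseudocount of 0.1, and the cattle-yak mean was 0.446% of the yak mean.

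ACTRT2 (ENSBGRG00000022341), an actin-related T protein, had 3.80, 0.710 and 0.532 FPKM in C1 to C3 and 257, 236 and 247 FPKM in Y1 to Y3. C1 stood well above the other cattle-yak animals, yet remained at 1.54% of the yak mean. Its log2 (foldchange) was −6.73 (SE 0.38, limma adjusted p = 1.4e-06).

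ACTRT3 (ENSBGRG00000007581), which is known to bind the testis profilin PFN3, fell less than the other germ-cell members. It had 2.77, 1.52 and 1.21 FPKM in C1 to C3 and 59.0, 45.1 and 53.7 FPKM in Y1 to Y3, with a log2 (foldchange) of −4.27 (SE 0.21, limma adjusted p = 7.1e-07). Its cattle-yak mean was 3.49% of the yak mean, while the other 9 genes kept 0.432% to 0.805%. In each cattle-yak animal ACTRT3 kept more of its yak level (5.27%, 2.90% and 2.29%) than any other gene of the set apart from CAPZB. Its share in the summed FPKM of the 10 genes ran from 8.11% to 18.8% across the hybrids and from 1.69% to 2.10% across the yak, a share picked after its values were seen.

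The calyx genes had low levels in every cattle-yak animal. CYLC1 (ENSBGRG00000013173), X-linked in human and mouse, had 0.508, 0.179 and 0.0432 FPKM in C1 to C3 and 55.7, 54.1 and 56.9 FPKM in Y1 to Y3. These stood for 12, 4 and 1 fragments in cattle-yak and 1414 to 1475 in yak. Its log2 (foldchange) was −5.52 (SE 0.16, limma adjusted p = 9.8e-08), which became −7.59 with a pseudocount of 0.1 in place of 1, as low levels are pulled together by the larger one. The single fragment of C3 corresponded to 0.0778% of the yak mean, with an exact 95% Poisson interval from 0.00197% to 0.433% that covers counting error only.

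CYLC2 (ENSBGRG00000000912) had 1.59, 0.443 and 0.171 FPKM in C1 to C3 and 159, 154 and 196 FPKM in Y1 to Y3, from 19, 5 and 2 fragments in the hybrids. In C3 this was 0.1% of the yak mean (exact 95% Poisson interval 0.0122% to 0.363%). The log2 (foldchange) was −6.70 (SE 0.27, limma adjusted p = 3.3e-07), and −8.07 with a pseudocount of 0.1. The cylicins are related proteins, and the ratio of CYLC1 to CYLC2 averaged 0.326 ± 0.076 over the hybrids and 0.330 ± 0.035 over the yak (SD, n = 3), less apart than the animals of a group were (p = 1.0 by an exact two-sided permutation). Calicin (CCIN, ENSBGRG00000003242) had 4.11, 2.28 and 0.732 FPKM in C1 to C3 and 416, 361 and 437 FPKM in Y1 to Y3. Its log2 (foldchange) was −7.04 (SE 0.34, limma adjusted p = 6.1e-07), and 86, 45 and 15 fragments remained in the hybrids.

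The ratio of ACTL7A to ACTL7B was 0.335, 0.347 and 0.560 for C1 to C3 and between 0.499 and 0.511 for the yak (exact permutation test, two-sided, p = 0.4, adjusted p = 0.50 over the 5 shares and ratios compared). It therefore differed by less than the spread between the cattle-yak animals. The ratio of C3 rested on 10 fragments of ACTL7A and 17 of ACTL7B, and counting error was not separated from this spread.

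The capping protein subunits differed from each other. CAPZA3 (ENSBGRG00000002812) had 3.76, 0.895 and 1.05 FPKM in C1 to C3 and 332, 356 and 413 FPKM in Y1 to Y3. Its log2 (foldchange) of −7.11 (SE 0.32, limma adjusted p = 4.7e-07) was the largest fall of the set with a pseudocount of 1 and ranked 39 among those of all tested genes. With a pseudocount of 0.1 it was −7.80, behind CYLC2, ACTL9 and the second ACTL7B gene (−8.07, −7.98 and −7.90). CAPZB (ENSBGRG00000004529), the beta subunit that pairs with every alpha subunit in somatic cells as well, had 153, 142 and 141 FPKM in C1 to C3 and 261, 246 and 300.1 FPKM in Y1 to Y3. The values of the groups did not overlap, and the cattle-yak mean was 54.0% of the yak mean. The log2 (foldchange) of CAPZB was −0.88 (SE 0.10, limma adjusted p = 6.6e-05), past the p threshold but under the fold threshold. It was −1.50, and called lower, with median-of-ratios scaling, where the median of all tested genes is 0.01 in place of 0.51 and 27.7% of them are called lower. With scaling to the Sertoli markers it was −3.10, where 73.5% of all tested genes are called lower. The table gives 1 value per gene, so the beta isoform of sperm and those of somatic cells are summed in it.

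The somatic alpha subunits had higher values in cattle-yak. CAPZA2 was called higher in cattle-yak with 45.2 ± 3.25 FPKM against 10.8 ± 1.26 (SD, n = 3), a log2 (foldchange) of 1.97 (limma adjusted p = 1.9e-06), although it was −0.26 when the libraries were centred on the Sertoli markers. CAPZA1 had 99.3 ± 5.27 against 50.1 ± 3.62 FPKM (SD, n = 3) and a log2 (foldchange) of 0.97, just under the threshold, which was 1.02 without C2 or without Y3 and −1.25 with Sertoli-centred scaling. Within a library, where no scaling between libraries enters, CAPZA3 made up 84.4%, 86.4% and 86.3% of the alpha-subunit FPKM in Y1 to Y3. In C1 to C3 it made up 2.51%, 0.657% and 0.689% (exact permutation test, two-sided, p = 0.1, the smallest that 3 animals against 3 can give, adjusted p = 0.17 over the 5 shares and ratios). Scaling by gene length remains, with models of 900 bases for CAPZA3, 2078 for CAPZA1, 1867 for CAPZA2 and 1218 for CAPZB. The size of these shares, and of the ratios to CAPZB, depends on these lengths. The summed alpha subunits amounted to 0.958 to 1.08 times the level of CAPZB in cattle-yak and 1.51 to 1.67 times in yak, and CAPZA1 and CAPZA2 alone to 0.952 to 1.08 times in cattle-yak and 0.219 to 0.235 times in yak. These sums against CAPZB were formed after the values were seen.

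**Figure D2:**
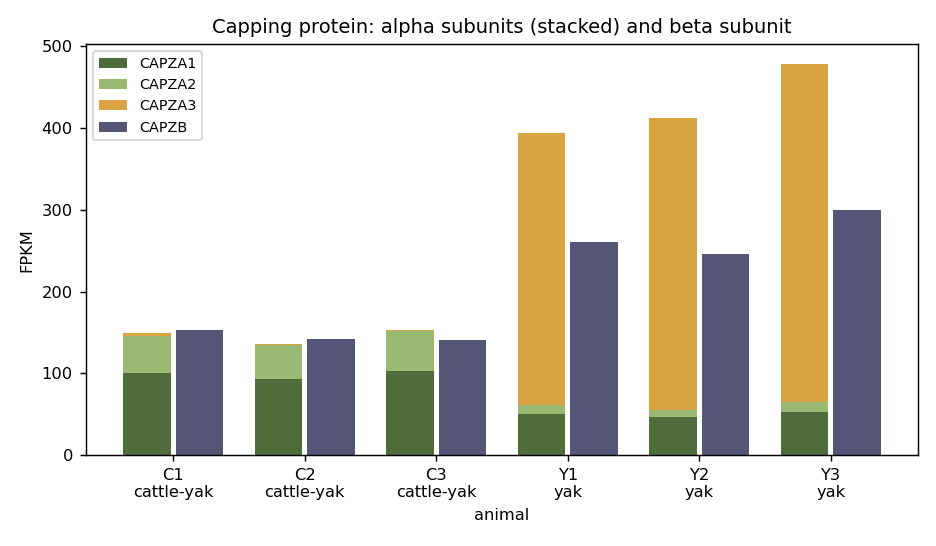
FPKM of the alpha subunits CAPZA1, CAPZA2 and CAPZA3 (stacked bars) and of the beta subunit CAPZB (bar beside them) in each animal, with no error bars as each bar is 1 library. CAPZA3 filled 84.4% to 86.4% of the alpha bar in yak and 0.657% to 2.51% in cattle-yak, where CAPZB kept 141 to 153 FPKM.

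The cattle-yak animals differed among themselves. C1 was the highest of the 3 in all 10 genes without CAPZB, and in 9 of these, with CAPZA3 as the exception, the order was C1, C2 and C3. Over all genes called lower, 63.9% were highest in C1 and 45.4% followed this order, against 34.5% and 19.2% of all genes tested. The median level kept over the 10 genes was 0.996%, 0.328% and 0.178% of the yak mean for C1, C2 and C3. All 7 genes of the elongating spermatid list showed the same order, with 90.6, 35.9 and 19.6 FPKM in sum in C1, C2 and C3. The round spermatid list had 55.5, 31.3 and 12.8 FPKM in sum, but its genes SUN5, SPACA3 and TEX29 were higher in C3 than in C2. The part of these spermatid markers in the levels of the actin-like and calyx genes was not tested. Without C1 the log2 difference of the summed FPKM of the 10 genes was −8.18 in place of −7.57, and the same number of 10 genes was called lower.

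Relative to the summed elongating spermatid markers, of which TNP1 is the most abundant, the 10 genes stood at 0.377, 0.409 and 0.326 in C1 to C3 and at 0.252, 0.276 and 0.254 in Y1 to Y3. The ratio was higher in every cattle-yak animal than in any yak. By an exact two-sided permutation test p was 0.1, the smallest possible here (adjusted p = 0.17 over the 5 shares and ratios). The ratio depends on TNP1 of the elongating spermatid list, with 44.8, 14.9 and 8.72 FPKM in C1 to C3. In Y1 to Y3 TNP1 had 6239, 5175 and 6427 FPKM. It also depends on ACTRT3, with 8.11% to 18.8% of the sum of the 10 genes in cattle-yak and 1.69% to 2.10% in yak. Neither gene was left out in turn, so the separation is not shown for the 10 genes as a set. The markers of that list kept 0.222% to 1.01% of their yak mean (median 0.408%), and the 10 genes 0.432% to 3.49% (median 0.542%). Of all genes called lower, 13.2% had a cattle-yak mean under 1% of the yak mean, as did 9 of these 10 genes.

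**Figure D3:**
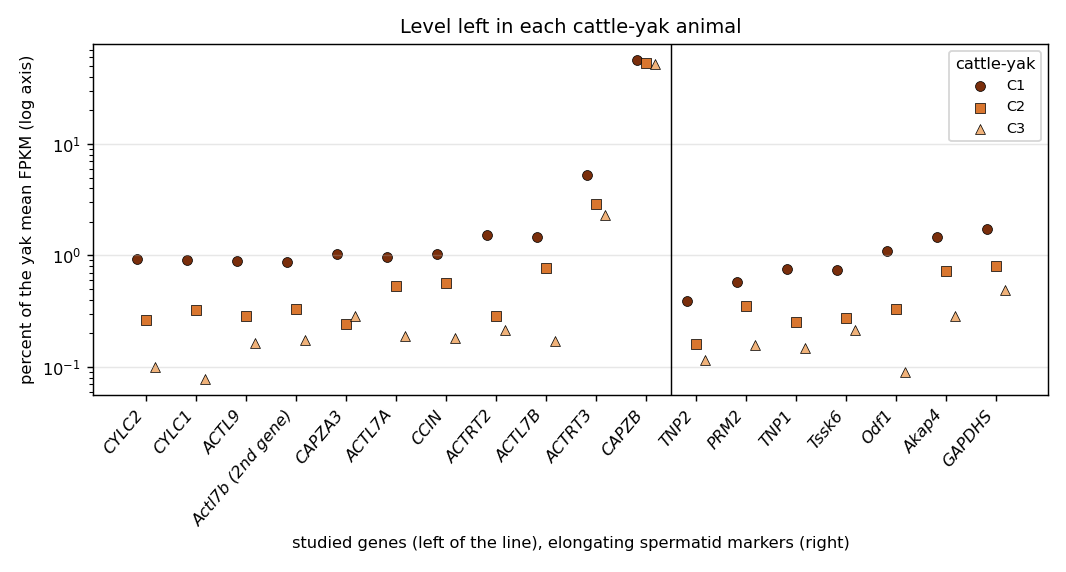
Level in each cattle-yak animal as a percent of the yak mean FPKM (log axis) for the 11 genes, left of the line, and for 7 markers of elongating spermatids, right of it. C1 is the highest point of every gene, ACTRT3 lies at 2.29% to 5.27%, and CAPZB at 52.4% to 56.8%.

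Other genes of sperm head shaping and the perinuclear theca were also low in cattle-yak. Of 15 such genes 13 were called lower and none higher, beside 20.8% and 33.4% of all tested genes, with a list median of −4.02. SPATA46 had the largest fall with a pseudocount of 1, −6.50 (limma adjusted p = 2.1e-07), from 217 ± 19.8 FPKM in yak to 1.51 ± 0.915 in cattle-yak (SD, n = 3). ACTRT1, another actin-related T protein, had 0.671, 0.0789 and 0.380 FPKM in C1 to C3 and 75.7, 70.3 and 77.9 FPKM in Y1 to Y3, a log2 (foldchange) of −5.80 (limma adjusted p = 9.9e-08). With a pseudocount of 0.1, ACTRT1 (−7.53) and PLCZ1 (−7.62), the sperm factor of egg activation, fell more than SPATA46 (−7.24). SPACA1, a membrane protein of the acrosome, had 5.33 ± 3.75 against 189.8 ± 24.5 FPKM (SD, n = 3) and a log2 (foldchange) of −5.07 (limma adjusted p = 4.6e-06). The Golgi proteins GOPC and TMF1, which act in vesicle traffic in many tissues, did not pass, with 0.20 and −0.40. GOPC was −0.40 with median-of-ratios and −2.03 with Sertoli-centred scaling, and TMF1 was −1.01 (limma adjusted p = 3.2e-05), past both thresholds, with the former and −2.62 with the latter.

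Germ-cell and somatic forms also parted in the profilins, which bind actin monomers. PFN3 went from 161 ± 27.8 FPKM in yak to 1.45 ± 1.04 in the hybrids (SD, n = 3), with a log2 (foldchange) of −6.11 (limma adjusted p = 4.6e-07), and PFN4 was called lower as well, with −3.68. PFN1, the profilin of most somatic cells, was called higher with 689 ± 40.3 against 184 ± 9.36 FPKM (SD, n = 3) and a log2 (foldchange) of 1.90 (limma adjusted p = 6.3e-07), although with Sertoli-centred scaling it was −0.32. Of the 7 profilin and cofilin genes, 3 were called higher, 2 lower and 2 neither, with a median of 0.13. Over all tested genes 33.4% were called higher and 20.8% lower, and a difference of the list from these shares was not tested.

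Of the 4 tested conventional actins 3 were called higher, and none lower, beside 33.4% and 20.8% of all tested genes. With Sertoli-centred scaling only 30 of the 15042 tested genes are called higher. Beta-actin (ACTB) had 2208, 2327 and 2111 FPKM in C1 to C3 and 495, 498 and 524 FPKM in Y1 to Y3, a log2 (foldchange) of 2.13 (limma adjusted p = 4.2e-07), which was −0.09 with Sertoli-centred scaling. Acta2, the smooth muscle actin, had 2.42 (limma adjusted p = 1.8e-06) and is one of the 7 myoid cell genes, but with Sertoli-centred scaling it was 0.20 and not called (limma adjusted p = 0.19). ACTG1 had 0.78, under the threshold, and −1.44 with Sertoli-centred scaling.

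Of 13 genes listed as somatic actin-related proteins 5 were called higher and 1 lower, with a median of 0.87. Of 16 genes for capping protein paralogs and regulators 7 were called higher and 2 lower, with a median of 0.96. Which cell types express the genes of the first list was not tested. Over all tested genes 33.4% were called higher and 20.8% lower, and whether these lists differ from those shares was not tested. After Sertoli centring the list medians were −1.35 and −1.26. ACTR2, a subunit of the Arp2/3 complex, had the largest rise of the first list (2.36, limma adjusted p = 4.3e-07), which was 0.13 and not called with Sertoli-centred scaling (limma adjusted p = 0.30). ACTL10 had the largest fall (−2.61, limma adjusted p = 4.9e-06), from 6.53 ± 1.23 to 0.232 ± 0.196 FPKM (SD, n = 3), and −4.45 with a pseudocount of 0.1. Its cattle-yak mean was 3.55% of the yak mean, and it was the gene of this list called lower. In the second list the largest rise was that of TWF2 (2.42, limma adjusted p = 1.5e-06), a twinfilin that binds capping protein, which was 0.19 and not called with Sertoli-centred scaling (limma adjusted p = 0.22). The largest fall with a pseudocount of 1 was that of the more abundant of 2 genes with the symbol CARMIL2 (−1.32, limma adjusted p = 1.7e-04), while with 0.1 the other fell more (−2.22 against −1.99). CAPG, a capping protein unrelated to CAPZA, was called higher with 1.75, and −0.47 with Sertoli-centred scaling.

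The actin-like and actin-related members held 49.4% to 52.8% of the summed FPKM of the actin family in yak, and 0.539%, 0.235% and 0.104% in C1, C2 and C3. The family here comprised these 6 genes, the conventional actins and the genes listed as somatic actin-related proteins, with ACTL10 among them. ACTRT1, with 75.7, 70.3 and 77.9 FPKM in Y1 to Y3, was not counted in it. As the values are FPKM, the size of the shares depends on the lengths of the gene models. The shares of the groups did not overlap (exact permutation test, two-sided, p = 0.1, adjusted p = 0.17 over the 5 shares and ratios).

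**Figure D4:**
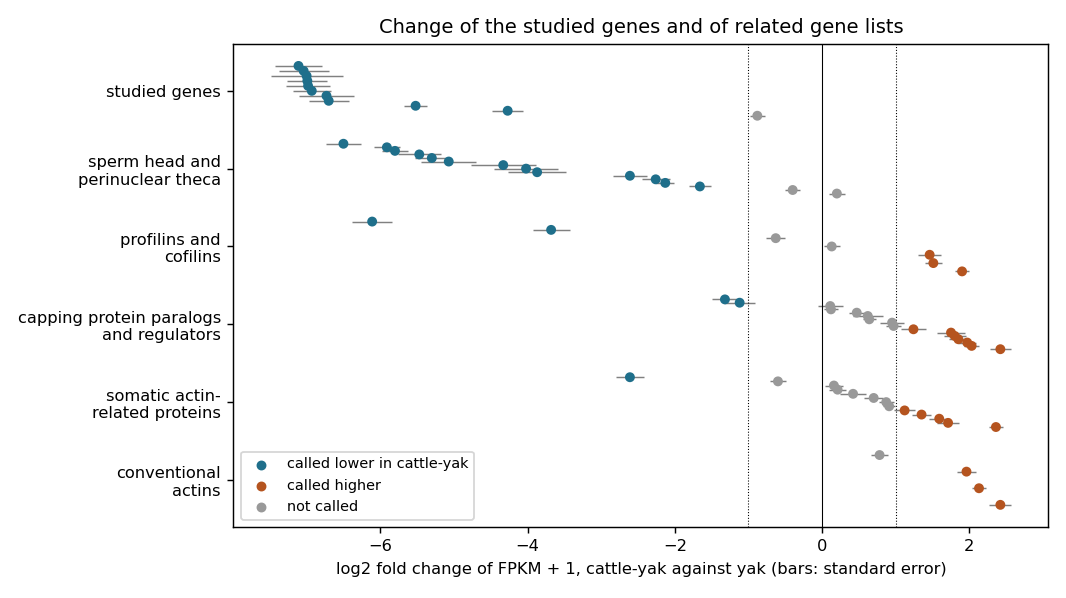
Log2 fold change of FPKM + 1 in cattle-yak against yak for the 11 genes and 5 related gene lists, with bars for the standard error and colours for the call. The 10 called genes lie between −7.11 and −4.27 and CAPZB at −0.88, while most conventional actins and capping regulators lie above 0, where with Sertoli-centred scaling the medians of these lists are −0.18 and −1.26.

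In the annotation deposited with the table, the term cytoskeletal calyx stands on 4 genes, and these were CYLC1, CYLC2, CCIN and CAPZB. The terms spermatogenesis and cell differentiation stood on CYLC1, CYLC2 and CCIN, while the 6 actin-like genes carried cytoskeleton and cytoplasm, and none of the 6 carried spermatogenesis. Among them ACTL7A and ACTRT3 carried male germ cell nucleus, a term that stands on 10 genes. The calyx term therefore joined 3 genes with log2 (foldchange) of −7.04 to −5.52 and CAPZB with −0.88.

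By the Euclidean distance of log2 (FPKM + 1) over the 6 animals, the 5 genes most like ACTL7A included Tssk2 (0.46), CCIN (0.54), Klhl10 (0.60) and PRR30 (0.62). These 4 had means of 273 to 405 FPKM in yak and 1.65 to 2.48 FPKM in cattle-yak. Those most like CAPZB were H2AZ1 (0.26), TIMM8B (0.31), TMEM230 (0.39), PIGC (0.41) and ATP6V1D (0.47), with 234 to 269.9 FPKM in yak and 124 to 163 FPKM in cattle-yak.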

How the data were processed

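The authors, per the methods, used Trimmomatic for trimming, HISAT2 for alignment of both groups to the yak genome LU_Bosgru_v3.0, and obtained FPKM from Cufflinks and counts from HTSeq. The columns of the deposited FPKM values bear the titles of the 6 samples. Hybrid reads from the cattle allele were aligned to the yak sequence, which may lower their number. Whole fragments and gene lengths were recovered from the steps of the values for 17973 genes, with every value within 0.03 fragments of a whole number. Genes whose mean FPKM reached 0.5 (15042) entered lmFit and eBayes with a trended prior on log2 (FPKM + 1), in limma 3.58.1 under R 4.3.3, over the whole table. Sums, shares and ratios within a library were compared by exact permutation over the 6 animals in Python 3.11.15 (numpy 2.4.6, pandas 2.3.3, scipy 1.17.1, matplotlib 3.10.9). The named genes were all members, CAPZA1, CAPZA2, CAPG, ACTB, ACTG1, ACTA2, ACTRT1 and SPACA1, the largest rise and fall of each related list, and the 5 nearest genes by distance, of which 1 is not reported here. PFN4, TMF1 and PLCZ1 were named after their values were seen. A list counts every gene with its symbols, and FAM209B, RIMBP3, ACTC1 and 7 markers were not matched. The limma step was also run on simulated data with no difference in scaling between the groups, so that run does not bear on the scaling. The members and lists were chosen with earlier results of these data known. Each library was 1 animal, so the limma p-values set the group difference against the spread between animals, moderated over all genes tested. Alternatives were Sertoli-centred, median-of-ratios and TPM scaling, a pseudocount of 0.1, no filter or one at 5 FPKM, an untrended limma prior, voom on the recovered fragments, and each animal left out.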

Additional observations from a re-analysis of the deposited data

How the results depend on the processing

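The number of members called lower (10) and higher (0) was the same under all 14 alternatives, apart from CAPZB, which joined the lower genes with median-of-ratios (−1.50) and Sertoli-centred scaling (−3.10). The log2 difference of the summed FPKM of the 10 genes was −7.57, and −9.80 with Sertoli-centred scaling. Without each animal in turn it lay between −8.18 and −6.97. With Sertoli-centred scaling, in which each library is shifted by the mean log2 level of 13 Sertoli genes and the median of all tested genes is −1.71, the sign turned for ACTB (−0.09), ACTG1 (−1.44), CAPG (−0.47), CAPZA1 (−1.25), CAPZA2 (−0.26), GOPC (−2.03) and PFN1 (−0.32), as it did for GOPC with median-of-ratios scaling (−0.40). ACTR2 (0.13), Acta2 (0.20) and TWF2 (0.19) kept their sign there but not their call. In this scaling the same value is subtracted from every gene of a library, so the log2 (foldchange) of all genes moves down by the same amount. The cause of the higher Sertoli levels in cattle-yak was not tested. With a pseudocount of 0.1 the log2 (foldchange) of the 10 lower genes ranged from −8.07 to −4.84 in place of −7.11 to −4.27. Over all genes, 5023 were higher and 3136 lower, against 2655 and 4173 with median-of-ratios scaling and 30 and 11052 with Sertoli-centred scaling. No paired analysis was possible because the labels give the groups no shared numbers, so that those used here only name the animals. Among the members, depth limits the hybrid values of CYLC1 and CYLC2 most, with 1 to 19 fragments per library, and ACTRT1 (1 to 9) and ACTL10 (1 to 4) had few as well.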
